A study of Mus musculus with 3 samples.

Results

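The genes described here encode the proteins of the cytosolic ribosome. They were taken by symbol, as single-symbol rows named Rpl or Rps with a number, Rplp0 to Rplp2 or Rpsa, with pseudogene rows left out and at least 1 FPKM in a library. FPKM count sequenced fragments per kilobase of a transcript, relative to the size of the library. Of 23283 genes or groups of genes in the deposited tables, 83 matched the symbols and 80 passed the minimum; Rpl10l, Rpl26 and Rpl3l are listed at 0 in every library. The 80 comprise 41 large-subunit genes, 31 small-subunit genes, 3 genes of the acidic stalk and 5 near-paralogs of a core gene (Rpl7l1, Rpl22l1, Rpl39l, Rps27l and Rps4y2). They cover 75 of the 79 core proteins. Among the others, Rpl26 is at 0, Rpl34 stands in a row joined with a pseudogene, and Fau, whose protein carries a ribosomal part, has another kind of symbol.

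RNA was sequenced from CD4+ T cells of C57BL/6 mice that bind 2W:I-A(b), the immunizing peptide on an MHC class II molecule. They were sorted by flow cytometry from inguinal and popliteal nodes on day 7 after 2W1S peptide, LPS and IFA were given in the footpads. The libraries were MyD88 T-KO (genotype Myd88 -/-), IL6ra T-KO (genotype Il-6 receptor a chain -/-) and WT. The series title calls the deletions T cell-specific, and the Cre driver is not given in the sources used here. Each library was made from polyA RNA of cells pooled from 4 experiments and 15 to 30 mice per genotype. With 1 library per genotype there is no replicate check and no test, and the values below describe these 3 libraries.

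A ribosome has a large subunit, which forms peptide bonds, and a small subunit, which reads the mRNA, and each protein is present once in most ribosomes except the stalk proteins P1 and P2, which come in several copies. In mammals the mRNAs of these proteins are known as TOP mRNAs, because they start with a C followed by a run of pyrimidines, through which mTOR and LARP1 control their translation. Activated T cells are known to make many ribosomes before they divide.

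The start-site sequences below are shown because a pyrimidine run at the very start is the feature that the family is known for. Among the members with an entry in the RefSeq promoter table (build GRCm38.p6), they belong to the 5 with the lowest ratio to WT in the IL6ra T-KO-labelled library and to the 4 with a ratio above 0 there. Each runs from 15 bases before to 15 bases after the annotated start. Capitals mark the longest run of at least 6 pyrimidines led by a C in the searched stretch, from 10 bases before to 15 after the start.
Rpl12 (chr2:32961697-32961726, plus strand): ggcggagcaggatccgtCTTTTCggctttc
Rpl28 (chr7:4792950-4792979, plus strand): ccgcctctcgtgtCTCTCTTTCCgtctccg
Rpl39 (chrX:37085208-37085237, minus strand): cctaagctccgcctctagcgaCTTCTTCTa
Rpsa (chr9:120127751-120127780, plus strand): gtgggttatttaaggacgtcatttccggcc
Rpl18 (chr7:45718056-45718085, plus strand): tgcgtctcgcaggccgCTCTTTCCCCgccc
Rps18 (chr17:33955651-33955680, minus strand): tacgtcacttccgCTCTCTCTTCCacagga
Rps12 (chr10:23787195-23787224, minus strand): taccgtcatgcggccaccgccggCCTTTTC
Rpl7l1 (chr17:46782642-46782671, minus strand): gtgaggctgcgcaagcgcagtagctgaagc
Rps15a (chr7:118116133-118116162, minus strand): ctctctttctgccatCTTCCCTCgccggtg
Rps29, Rpl30 and Rpl36 are named only. A run was found in 7 of these 9 windows, on both sides of the ratio range, and not in those of Rpsa and Rpl7l1. The search did not ask that a run begin at the start, and among these windows only the marked run of Rps15a does. The marked runs of Rpl28 and Rps18 begin just before the annotated start and continue across it. Their annotated start is itself a C followed by pyrimidines. A run found here is therefore not shown to be a TOP, and its absence does not show that an mRNA lacks one.

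Of the 59 members matched in the promoter table, 33 (55.9%) had such a run on the coding strand, against 5669 of 26966 other genes (21.02%). CTCTTTC was found in 8.47% of members and 0.337% of other genes on the coding strand, and in 1.69% and 0.304% on the opposite strand. CTTTTC was found in 5.08% and 0.983% on the coding strand, and in 1.69% and 0.838% on the opposite strand. CTTCCG was found in 5.08% and 1.78% on the coding strand, and in 8.47% and 1.87% on the opposite strand. The words can overlap one another and the run. In the IL6ra T-KO-labelled library, members with a run had a median log2 ratio to WT of -0.29 (33 members), and those without one had a median of -0.29 (26 members). In the MyD88 T-KO library the medians were 0.05 with a run and 0.08 without. Members were split here by the searched run and not by measured TOP starts.

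The libraries were checked on the deleted genes. Myd88 stood at 19.5 FPKM in MyD88 T-KO and 49.8 FPKM in WT, and at 34.2 FPKM in the IL6ra T-KO-labelled library and 51.0 FPKM in WT. Il6ra stood at 60.9 FPKM in MyD88 T-KO and 55.8 FPKM in WT, and at 65.1 FPKM in the IL6ra T-KO-labelled library and 57.1 FPKM in WT. The Il6ra level therefore did not show that label, although gene-level FPKM do not resolve a deleted exon. Depth was estimated roughly, at 21.8 M fragments for MyD88 T-KO, 25.8 M for the IL6ra T-KO-labelled library, and 22.4 M and 21.9 M for WT in its 2 tables.

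Members of the family span a wide range of levels. In WT (table with MyD88 T-KO) they ran from 0.735 FPKM for Rpl39l to 1634 FPKM for Rplp2, with a median of 75.4 FPKM. The 10 members at 1000 FPKM or more held 54.3% of the summed FPKM of the family, while 23 lay from 100 to 1000, 41 from 10 to 100 and 6 under 10 FPKM. Of the 50 features with the highest WT level, 16 were members, and of the top 100, 21 were. The highest were Rplp2 of the stalk, Rps9 (1620 FPKM), Rps26 (1365 FPKM), Rpl13a (1358 FPKM) and Rpl4 (1246 FPKM). At the other end Rps12 had 4.27 FPKM, Rpl9 4.92 FPKM and Rps13 8.78 FPKM, although each encodes a core protein.

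**Figure D1:**
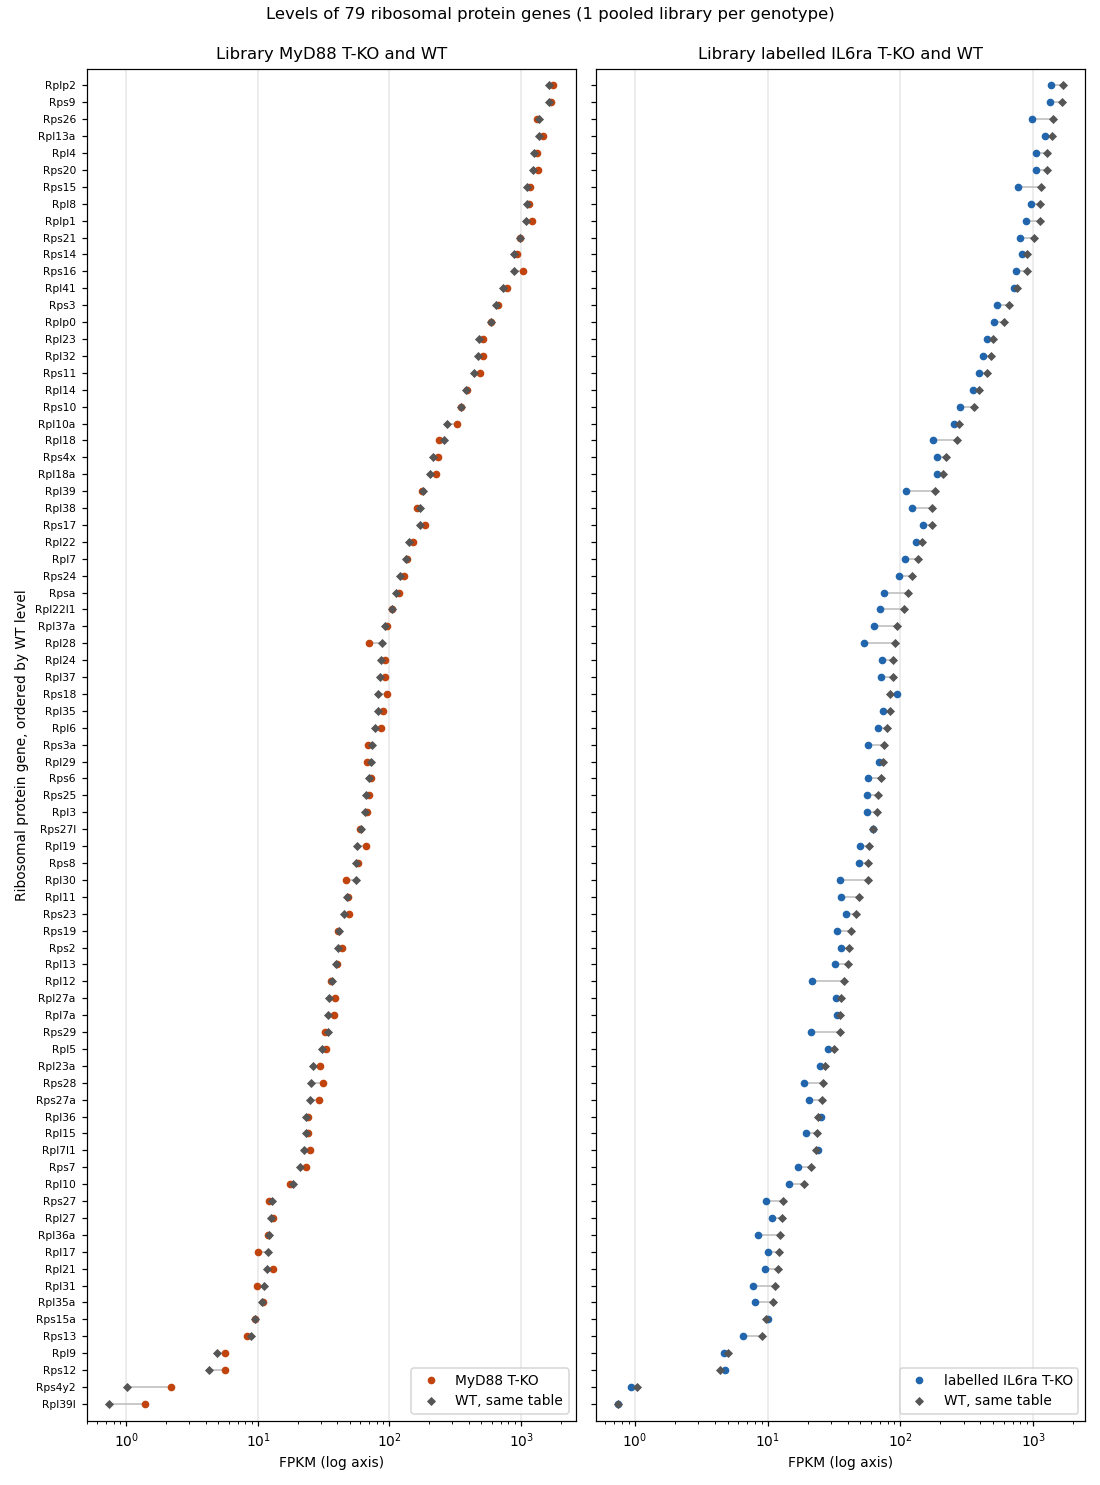
FPKM (log axis) of 79 of the 80 ribosomal protein genes, ordered by WT level, with the knockout library as a circle and WT of the same table as a diamond, 1 pooled library each. Circles lie mostly right of the diamonds in MyD88 T-KO and left of them in the IL6ra T-KO-labelled library. Of all 80 members, 60 were higher in MyD88 T-KO and 75 were lower in the IL6ra T-KO-labelled library.

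Levels went along with the number of near-identical copies in the genome. Most ribosomal protein genes have processed pseudogenes, and a fragment that matches several loci can be lost or divided when it is aligned. For each member, 50-base windows of 1 transcript (GENCODE M21, GRCm38) were looked up in the transcripts of all other loci. The 27 members that shared windows with at most 5 annotated pseudogene loci had a median WT level of 642 FPKM. The median was 85.3 FPKM for 23 members with 6 to 10 loci, 36.4 FPKM for 19 members with 11 to 19, and 26.4 FPKM for 11 members with 20 or more. Over the 80 genes, which share the library and its alignment, Spearman's rho between pseudogene loci and WT level was -0.58, and that between the share of windows found nowhere else and WT level was 0.44. What the copies contribute to the levels was not tested. The ratios between libraries had no such relation: rho with the pseudogene count was -0.03 in MyD88 T-KO and 0.01 in the IL6ra T-KO-labelled library. With the share of unique windows it was 0.05 and 0.03 in these libraries.

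Coding stretches of 50 bases from 4 members, chosen after their values were seen, show what such a shared window is. Each is the window found at the most other loci among the windows of the reading frame kept for printing. Windows with a match at certain loci were left out, so a more widely shared window may exist. The windows are from GENCODE M21 transcripts, with the gene's position on GRCm38.
Rps12 (chr10:23785183-23787275, minus strand, 21 other loci): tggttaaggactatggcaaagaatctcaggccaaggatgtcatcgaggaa
Rpl9 (chr5:65388364-65391444, minus strand, 8 other loci): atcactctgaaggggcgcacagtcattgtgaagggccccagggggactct
Rpl10a (chr17:28328471-28331033, plus strand, 3 other loci): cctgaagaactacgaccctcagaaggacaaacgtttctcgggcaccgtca
Rpl8 (chr15:76904078-76906314, plus strand, 1 other locus): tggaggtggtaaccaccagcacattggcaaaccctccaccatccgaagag
Rps12 and Rpl9 stood at 4.27 and 4.92 FPKM in WT, and Rpl8 at 1104 FPKM. For Rpl8, 92.1% of windows were found at no other locus, against 9.89% for Rps12 and 13.3% for Rpl9. Rps27, with 1.35% unique windows, stood at 12.7 FPKM in WT. Members also departed from this order: Rpl10a had 11.9% unique windows at 272 FPKM, Rps10 16.3% at 349 FPKM, and Rpl39l 100% at 0.735 FPKM. A level of such a member is uncertain for this reason, and so is its ratio.

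**Figure D2:**
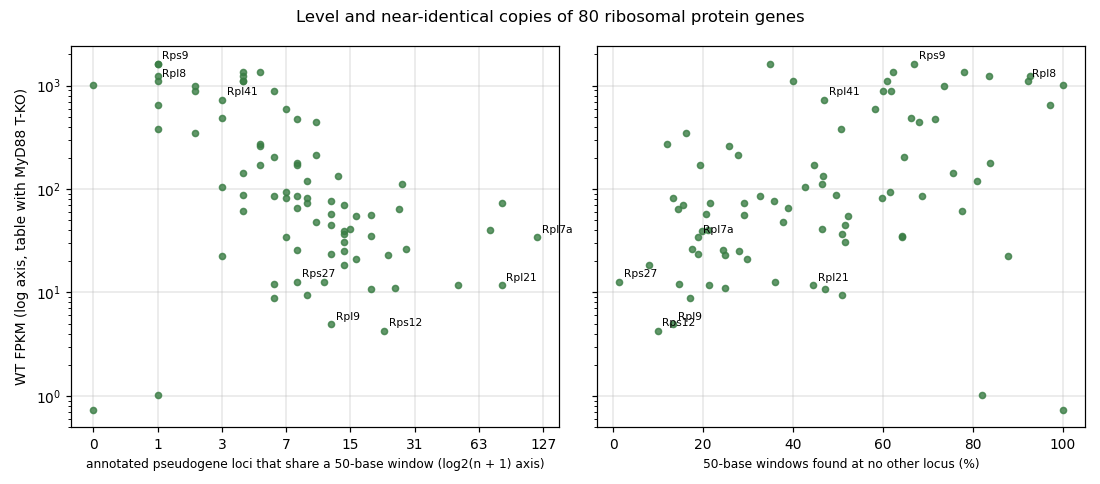
WT FPKM (log axis) of the 80 members against the number of annotated pseudogene loci that share a 50-base window (left) and against the percentage of windows found at no other locus (right), 1 point per gene. Rpl8 and Rps9, with 1 such locus each, stood above 1000 FPKM, and Rps12, with 22, stood at 4.27 FPKM.

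The first comparison concerns T cells without MyD88, the adaptor of receptors of the IL-1 family and of most Toll-like receptors. The family stood slightly higher in MyD88 T-KO than in WT. Of the 80 members, 60 had a log2 ratio above 0 and 20 below, where the ratio is log2((knockout FPKM + 1)/(WT FPKM + 1)). Among all 10561 features measured at 1 FPKM or more, 54.1% were above 0 and 45.8% below. The members' median was 0.08 (interquartile range 0.01 to 0.14), against 0.01 for all measured features and 0.04 for the 522 other features with a mean of 100 FPKM or more, of which 62.3% lay above 0 and 37.4% below. Summed over the members, FPKM came to 24872 in MyD88 T-KO and 23558 in WT, a ratio of 1.06. Their share of all FPKM was 7.24% in MyD88 T-KO and 6.97% in WT. In the shortest length class the members stood like other protein-coding genes: with transcripts under 700 bases, 39 members had a median of 0.05, with 35.9% below 0, and 289 other genes a median of 0.05, with 37.7% below 0. Between 700 and 1500 bases, 34 members had a median of 0.08 and 1582 other genes 0.03.

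Ratios of single members were small in that comparison. At a log2 ratio of 0.25 or more in size, 5 were higher and 1 was lower, against 6.58% and 5.69% of measured features and 2.49% and 7.28% of the other features at 100 FPKM or more. At 0.5 or more, 1 was higher and none was lower, against 1.58% and 1.47%. No member reached 1, which 0.18% of features did on the higher side and 0.256% on the lower. The median standard error implied by the authors' deposited table (its fold change divided by its test statistic, without the pseudocount) was 0.19 for a single member. It comes from the authors' model and not from replicates, and no member lay more than 2 such errors from 0. The authors' deposited table marked 0.878% of its 11164 tested features as significant and none of the members. The lowest member p in the authors' deposited table was 0.0711, for Rpl28, with 0 members under 0.05. For all tested features, neither the share under this p nor that past 2 implied errors is given here. These member counts are therefore not read as a result about the family.

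The second comparison concerns T cells labelled as lacking the ligand-binding chain of the receptor for IL-6, an inflammatory cytokine. The family as a whole stood lower in the IL6ra T-KO-labelled library than in WT. Of the 80 members, 75 had a log2 ratio below 0 and 5 above, against 56.9% and 43% of measured features. The median was -0.27 (interquartile range -0.38 to -0.16), against -0.04 for all measured features. Other features with a mean of 100 FPKM or more had a median of -0.14, and 78% of them were below 0, so features at high levels stood lower in general. Summed FPKM of the members came to 19715 in the IL6ra T-KO-labelled library and 24132 in WT, a ratio of 0.817. Their share of all FPKM was 6.05% in the IL6ra T-KO-labelled library and 6.97% in WT. In pooled cells, fewer cells of a type with high ribosomal mRNA and less ribosomal mRNA per cell cannot be told apart.

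At a log2 ratio of 0.25 or more in size, 44 members were lower and none was higher, against 15.5% and 14.9% of measured features and 29.1% and 5.94% of the other features at 100 FPKM or more. At 0.5 or more, 13 were lower and none was higher, against 4.07% and 5.77%. No member reached 1 in size, which 0.748% of features did on the lower side and 1.1% on the higher. The median implied standard error of a single member was 0.33, and 4 members lay more than 2 implied errors below 0. The authors' deposited table marked 0.969% of 11356 tested features as significant and no member. The 5 members with an unadjusted p under 0.05 in the authors' deposited table were Rpsa, Rpl39, Rpl28, Rpl18 and Rpl12, and the lowest q was 0.588, for Rpsa. The share of all tested features under this p, or past 2 implied errors, is not given here. Neither member count is therefore read as a result about the family. Both comparisons share the WT library, so a low or high WT value of a gene enters both ratios.

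**Figure D3:**
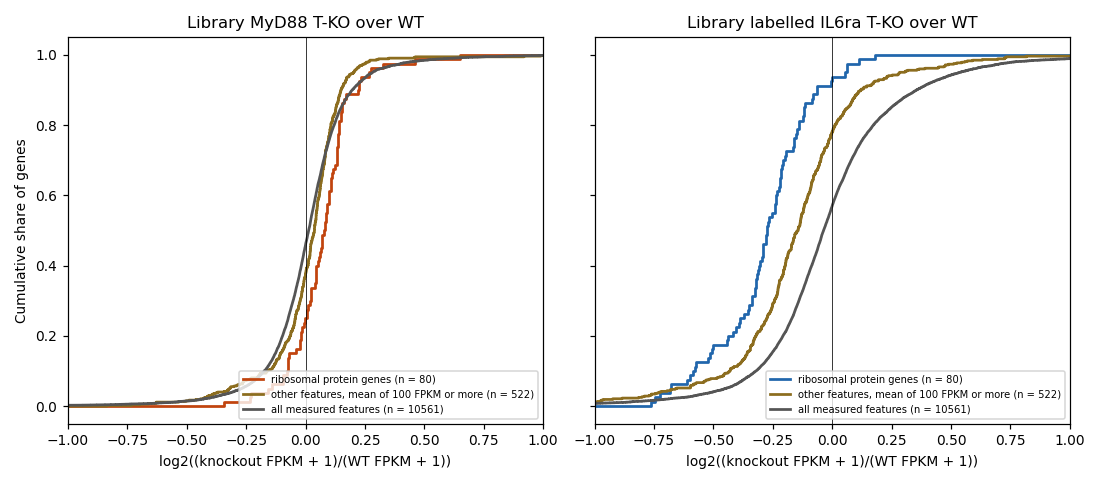
Cumulative share of genes against log2((knockout FPKM + 1)/(WT FPKM + 1)) for the 80 members, for 522 other features with a mean of 100 FPKM or more and for 10561 measured features, with 1 panel per knockout library; values outside -1 to 1 lie beyond the axis. Over most of its length, the members' curve lies right of the other curves in MyD88 T-KO and left of them in the IL6ra T-KO-labelled library.

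The 41 large-subunit genes had a median of 0.07 in MyD88 T-KO, with 30 higher and 11 lower, and a median of -0.24 in the IL6ra T-KO-labelled library, with 1 higher and 40 lower. Rpl12, whose protein lies at the base of the stalk, stood at 35.8 FPKM in MyD88 T-KO and 36.4 FPKM in WT. It stood at 21.6 FPKM in the IL6ra T-KO-labelled library and 37.3 FPKM in WT. The IL6ra T-KO-labelled library was thus the low one, with the lowest ratio of all members, -0.76 (implied SE 0.39), against -0.02 (0.21) in MyD88 T-KO.

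Rpl28 stood at 69.3 FPKM in MyD88 T-KO and 88.1 FPKM in WT, and at 53.4 FPKM in the IL6ra T-KO-labelled library and 90.2 FPKM in WT. Both knockout libraries were below WT, at -0.34 (implied SE 0.19), the lowest ratio in MyD88 T-KO, and at -0.74 (0.34) in the IL6ra T-KO-labelled library. Rpl39, a very small protein near the exit of the peptide tunnel, stood at 176 FPKM in MyD88 T-KO and 179 FPKM in WT, and at 110.5 FPKM in the IL6ra T-KO-labelled library and 183 FPKM in WT. Its ratios were -0.02 (0.18) and -0.73 (0.33), with the IL6ra T-KO-labelled library the low one. Rpl30 stood at 46.9 FPKM in MyD88 T-KO and 55.3 FPKM in WT, and at 35.1 FPKM in the IL6ra T-KO-labelled library and 56.7 FPKM in WT. Its ratios were -0.23 (0.23) and -0.68 (0.42), again with WT the highest. Rpl18 had ratios of -0.14 (0.16) and -0.60 (0.27), and Rpl31 of -0.16 (0.29) and -0.50 (0.53).

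Rpl5 and Rpl11 encode the proteins that join the 5S RNA and that, outside the ribosome, bind the p53 regulator MDM2. Rpl5 stood at 33.1 FPKM in MyD88 T-KO and 30.9 FPKM in WT, and at 28.7 FPKM in the IL6ra T-KO-labelled library and 31.7 FPKM in WT. Its ratios of 0.10 and -0.14 were each smaller than their implied SE of 0.19 and 0.33. Rpl11 stood at 48.5 FPKM in MyD88 T-KO and 47.8 FPKM in WT, and at 35.8 FPKM in the IL6ra T-KO-labelled library and 49.0 FPKM in WT. Its ratios were 0.02 and, in the IL6ra T-KO-labelled library, -0.44 (implied SE 0.37). Rpl3, a protein of the peptide-bond centre, had ratios of 0.07 and -0.23. Rpl10, which joins the large subunit late in its assembly, had -0.07 and -0.37, and Rpl7 had 0.04 and -0.32.

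Some large-subunit genes lay nearer to WT in the IL6ra T-KO-labelled library than the group median of -0.24 (interquartile range -0.41 to -0.15). Rpl41, which encodes the smallest ribosomal protein, stood at 783 FPKM in MyD88 T-KO and 731 FPKM in WT, and at 716 FPKM in the IL6ra T-KO-labelled library and 749 FPKM in WT. Its ratios were 0.10 and -0.06. Rpl22, whose loss is known in mice to impair the development of alpha beta T cells, had ratios of 0.09 and -0.16. Rpl13a, also known as a translational silencer in human monocytes, had 0.11 and -0.19. Rpl36 was the one large-subunit gene above WT in the IL6ra T-KO-labelled library, at 25.01 FPKM there and 23.9 FPKM in WT, a ratio of 0.06 (implied SE 0.51). The highest large-subunit ratio in MyD88 T-KO was that of Rpl10a, at 327 FPKM in MyD88 T-KO and 272 FPKM in WT, or 0.27 (0.16). Rpl10a had a ratio of -0.14 in the IL6ra T-KO-labelled library, and Rpl19 had 0.23 and -0.24 in the 2 libraries.

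The 31 small-subunit genes had a median of 0.08 in MyD88 T-KO, with 24 higher and 7 lower, and a median of -0.31 in the IL6ra T-KO-labelled library, with 3 higher and 28 lower. Rps29 stood at 32.2 FPKM in MyD88 T-KO and 34.1 FPKM in WT, and at 21.3 FPKM in the IL6ra T-KO-labelled library and 34.9 FPKM in WT. Its ratios were -0.08 (implied SE 0.29) and -0.68 (0.51). Rpsa, also known as the laminin receptor, stood at 117 FPKM in MyD88 T-KO and 112 FPKM in WT, and at 74.6 FPKM in the IL6ra T-KO-labelled library and 115 FPKM in WT. Its ratio of -0.61 (0.27) in the IL6ra T-KO-labelled library lay furthest from 0 in implied SE, while its ratio in MyD88 T-KO was 0.07 (0.16).

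Rps26, one of the highest members, stood at 1329 FPKM in MyD88 T-KO and 1365 FPKM in WT, and at 973 FPKM in the IL6ra T-KO-labelled library and 1399 FPKM in WT. The ratios were -0.04 (implied SE 0.17) and -0.52 (0.28). Rps9 had ratios of 0.05 and -0.32, and Rps3, which lies at the mRNA entry, 0.07 and -0.30. Rps6, the protein phosphorylated by the S6 kinases, had 0.06 and -0.32. Rps4x had 0.13 and -0.21, and Rps19, mutated in human Diamond-Blackfan anaemia, -0.02 and -0.34. Rps28 and Rps27a were among the highest in MyD88 T-KO, at 0.27 (0.34) and 0.23 (0.23), and lay at -0.44 and -0.32 in the IL6ra T-KO-labelled library.

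The small-subunit genes above WT in the IL6ra T-KO-labelled library were Rps18, Rps12 and Rps15a. Rps18 stood at 95.8 FPKM in MyD88 T-KO and 81.4 FPKM in WT, and at 94.6 FPKM in the IL6ra T-KO-labelled library and 83.4 FPKM in WT. Its ratios of 0.23 (implied SE 0.18) and 0.18 (0.31) put both knockout libraries above WT. Rps12 stood at 5.60 FPKM in MyD88 T-KO and 4.27 FPKM in WT, and at 4.81 FPKM in the IL6ra T-KO-labelled library and 4.37 FPKM in WT, with ratios of 0.32 (0.46) and 0.11 (0.69). Rps15a stood at 9.56 FPKM in MyD88 T-KO and 9.49 FPKM in WT, and at 10.1 FPKM in the IL6ra T-KO-labelled library and 9.72 FPKM in WT. All of these ratios but that of Rps18 in MyD88 T-KO were smaller than their implied SE. Of the other core members at low levels, Rps13 had ratios of -0.07 and -0.42 and Rps27 of -0.07 and -0.39, each within its implied SE. Rpl9 had 0.17 and -0.08, and Rpl17 -0.23 and -0.26.

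The acidic stalk recruits the elongation factors to the ribosome. Rplp2 stood at 1765 FPKM in MyD88 T-KO and 1634 FPKM in WT, and at 1368 FPKM in the IL6ra T-KO-labelled library and 1673 FPKM in WT, with ratios of 0.11 and -0.29. Rplp1 stood at 1209 FPKM in MyD88 T-KO and 1097 FPKM in WT, and at 878 FPKM in the IL6ra T-KO-labelled library and 1123 FPKM in WT, with ratios of 0.14 and -0.36. Rplp0, which holds them on the large subunit, stood at 589 FPKM in MyD88 T-KO and 593 FPKM in WT, and at 509.6 FPKM in the IL6ra T-KO-labelled library and 607 FPKM in WT, with ratios of -0.01 and -0.25. All 3 were lower in the IL6ra T-KO-labelled library.

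The near-paralogs were not uniform. Rpl22l1, the paralog of Rpl22, stood at 105 FPKM in MyD88 T-KO and 104 FPKM in WT, and at 70.4 FPKM in the IL6ra T-KO-labelled library and 106 FPKM in WT, with ratios of 0.02 and -0.59 (implied SE 0.34). Rpl22 itself had a ratio of -0.16 (0.27) there, and the difference between the paralogs was not tested. Rps27l, a target of p53, stood at 60.0 FPKM in MyD88 T-KO and 61.0 FPKM in WT, and at 62.5 FPKM in both the IL6ra T-KO-labelled library and WT. Rpl7l1 had ratios of 0.15 and 0.06. Rpl39l and Rps4y2 were the lowest members. Rpl39l stood at 1.39 FPKM in MyD88 T-KO and 0.735 FPKM in WT, or roughly 17 and 9 fragments, and its ratio was 0.46 (0.72). Rps4y2 stood at 2.16 FPKM in MyD88 T-KO and 1.02 FPKM in WT, a ratio of 0.65 (1.23), the highest of all members. In the IL6ra T-KO-labelled library their ratios were -0.00 (0.98) and -0.08 (2.46).

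**Figure D4:**
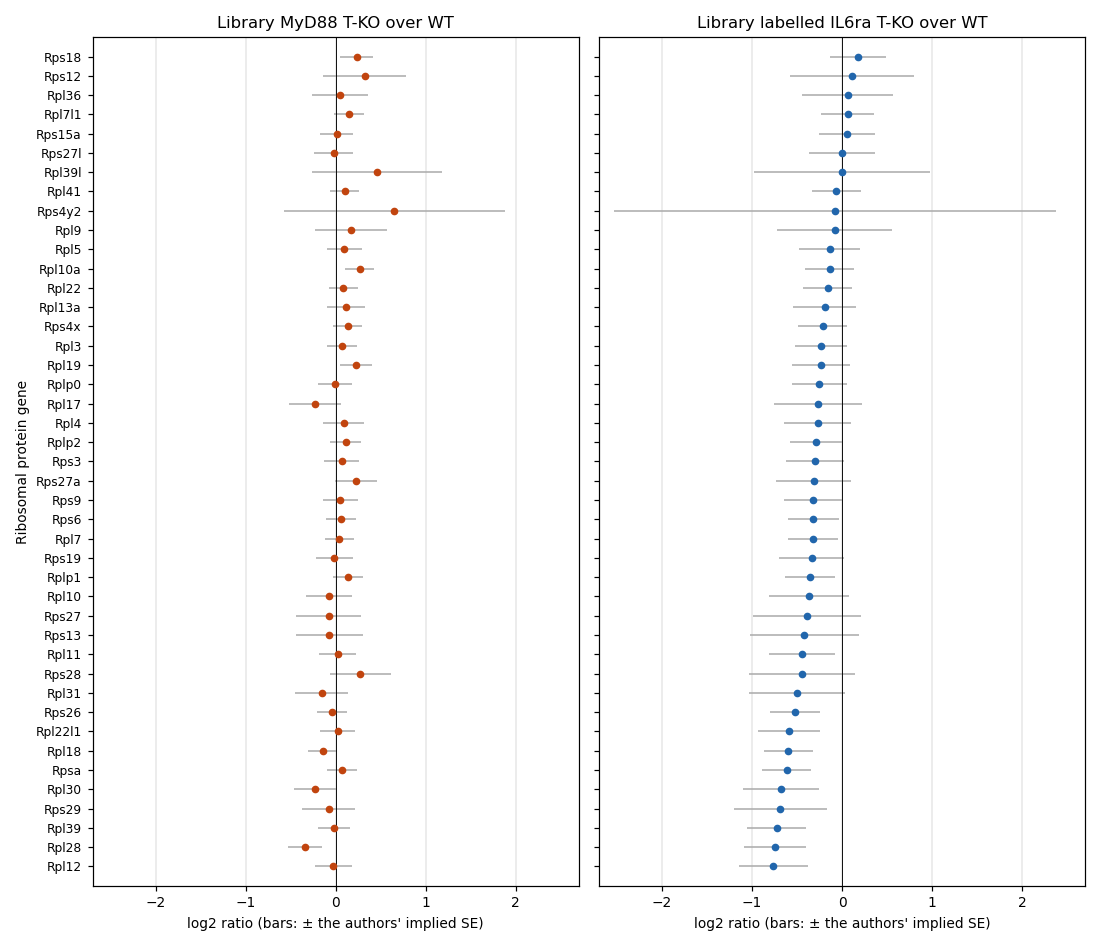
Log2 ratio of knockout over WT for the members named by rule, ordered by the ratio in the IL6ra T-KO-labelled library, with bars of 1 standard error implied by the authors' deposited table and 1 panel per knockout library. Rps18 is at the top (0.18) and Rpl12 at the bottom (-0.76), and the bars of Rps4y2 are the longest.

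The lower family median in the IL6ra T-KO-labelled library was seen both at 100 FPKM or more and below 100 FPKM. The 33 members at 100 FPKM or more in WT had a median of -0.27 there, with 33 of 33 lower, and the 47 members under 100 FPKM a median of -0.27, with 42 of 47 lower. The 6 members under 10 FPKM in WT were mixed. Rps12 (0.11) and Rps15a (0.06) lay above 0, and Rpl39l (-0.00), Rps4y2 (-0.08), Rpl9 (-0.08) and Rps13 (-0.42) below. Among protein-coding genes with transcripts under 700 bases and a mean of 100 FPKM or more, 15 members had a median of -0.34 and 50 other genes a median of -0.16, with 15 of 15 and 41 of 50 lower. From 20 to 100 FPKM in the same length class, 14 members had a median of -0.30 and 99 other genes -0.15. Below 20 FPKM, 9 members had a median of -0.39 and 128 other genes -0.05. Between 700 and 1500 bases the gap was smaller at 100 FPKM or more, with a median of -0.22 for 12 members and -0.15 for 133 other genes. From 20 to 100 FPKM in that length class, 19 members had a median of -0.24 and 537 other genes -0.10. At 1500 bases or more and 100 FPKM or more, 5 members had a median of -0.30 and 319 other genes -0.14. Length is that of 1 annotated transcript per gene, such as 3706 bases for Rps20. Which transcript the cells expressed was not examined, so the length classes are rough. Across members, rho of the ratio with transcript length was 0.17 in MyD88 T-KO and 0.14 in the IL6ra T-KO-labelled library, and with GC content -0.01 and -0.02.

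Related genes of the translation machinery were counted in the same way. Among all measured features, 54.1% were higher in MyD88 T-KO and 56.9% were lower in the IL6ra T-KO-labelled library. For other features with a mean of 100 FPKM or more, these shares were 62.3% and 78%. Of 24 elongation factors and other TOP mRNAs, 20 were higher and 4 lower in MyD88 T-KO (median 0.08), and 2 were higher and 22 lower in the IL6ra T-KO-labelled library (median -0.24). Nap1l1 (0.16 and 0.10) and Gas5 (-0.31 and -0.25), the host of small nucleolar RNAs, were at its ends in MyD88 T-KO, and Btf3 had -0.39 in the IL6ra T-KO-labelled library. Of 51 ribosome biogenesis genes, 24 were higher and 27 lower in MyD88 T-KO (median -0.00), and 1 was higher and 50 lower in the IL6ra T-KO-labelled library (median -0.22), with Rrp1b at -0.85 and Wdr12 at 0.14. Of 30 measured initiation factors, 15 were higher and 15 lower in MyD88 T-KO (median 0.00), and 2 were higher and 28 lower in the IL6ra T-KO-labelled library (median -0.13).

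The 15 RNA polymerase I genes, which serve the transcription of ribosomal RNA, had medians of 0.00 in MyD88 T-KO, with 8 higher and 7 lower, and -0.15 in the IL6ra T-KO-labelled library, with 2 higher and 13 lower. The 76 mitochondrial ribosomal protein genes had medians of 0.07, with 54 higher and 22 lower, and -0.12, with 21 higher and 55 lower. The 72.4% of them lower in the IL6ra T-KO-labelled library lay between the shares of measured features (56.9%) and of other high features (78%). The 28 measured growth-control genes had medians of -0.01, with 13 higher and 15 lower, and -0.04, with 11 higher and 17 lower. Myc, a known activator of ribosome genes, stood at 16.4 FPKM in MyD88 T-KO and 20.5 FPKM in WT, and at 13.1 FPKM in the IL6ra T-KO-labelled library and 21.02 FPKM in WT, with ratios of -0.30 (implied SE 0.19) and -0.65 (0.33). Eif2ak2, the kinase PKR, had the highest ratio of that list in the IL6ra T-KO-labelled library, 0.43 (0.31).

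**Figure D5:**
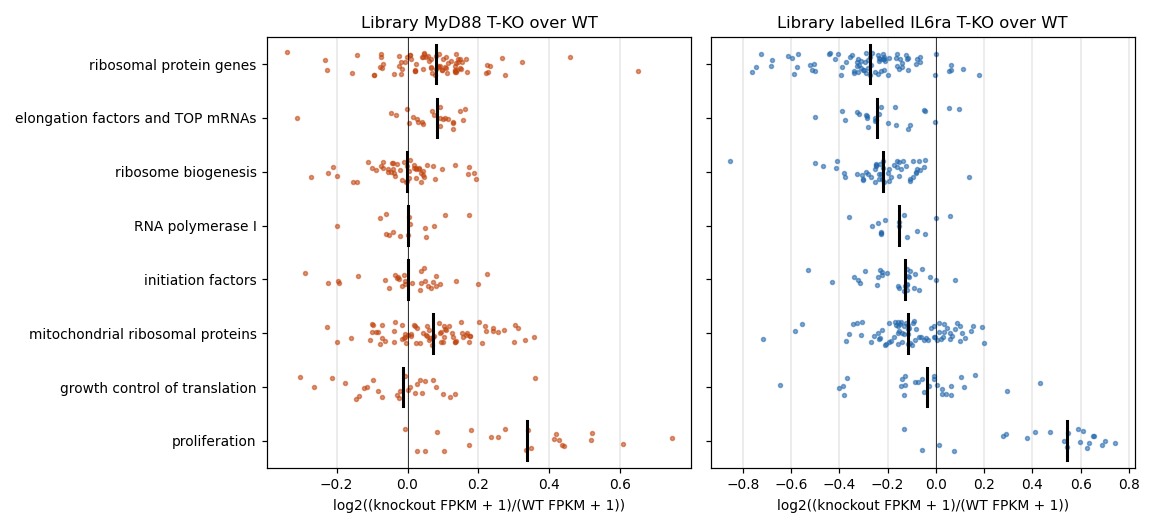
Log2((knockout FPKM + 1)/(WT FPKM + 1)) of the members and of 7 related lists, 1 point per gene spread vertically for clarity, with the median as a black bar and 1 panel per knockout library on separate scales. In the IL6ra T-KO-labelled library the medians run from -0.27 for ribosomal protein genes to 0.54 for proliferation genes.

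Markers of other cells and of the cell state differed between the libraries beside these ratios. Proliferation genes had medians of 0.34 in MyD88 T-KO (21 of 22 higher) and 0.54 in the IL6ra T-KO-labelled library (20 of 22 higher). All 16 B cell markers were higher in both knockout libraries, with a summed level of 950.3 FPKM in MyD88 T-KO and 520.2 FPKM in WT, and of 768 FPKM in the IL6ra T-KO-labelled library and 533 FPKM in WT. The 12 T cell markers summed to 4106 FPKM in MyD88 T-KO and 4050 FPKM in WT, and to 3698 FPKM in the IL6ra T-KO-labelled library and 4149 FPKM in WT, and Cd4 stood between 415 and 462 FPKM. The 7 naive and memory T cell genes summed to 1226 FPKM in MyD88 T-KO and 1238 FPKM in WT, and to 889.97 FPKM in the IL6ra T-KO-labelled library and 1268 FPKM in WT. Most of the latter sums was Tcf7, at 465 FPKM in the IL6ra T-KO-labelled library and 771 FPKM in WT. The median of the 7 ratios there was -0.14, with 6 lower and 1 higher, Il7r at 0.93 (implied SE 0.31). Both CD8 T cell markers were higher in MyD88 T-KO (median 0.85) and in the IL6ra T-KO-labelled library (median 0.24), and the 3 measured neutrophil markers had medians of 0.16 and -0.75. The 4 measured erythroid markers summed to 60.4 FPKM in MyD88 T-KO and 41.8 FPKM in WT, and to 21.7 FPKM in the IL6ra T-KO-labelled library and 42.8 FPKM in WT. The largest part of each sum was Tfrc, at 24.9 and 28.3 FPKM, and at 17.4 and 29.0 FPKM. Tfrc was lower in MyD88 T-KO (-0.18) while the other erythroid markers were higher. In the IL6ra T-KO-labelled library Tfrc, Beta-s and Hba-a2 were lower. Hbb-b2 was practically absent there (9.35e-05 FPKM) and in WT (0.00561 FPKM), so it shows no direction. The 4 plasma cell markers summed to 69.6 FPKM in MyD88 T-KO and 62.5 FPKM in WT, and to 96.5 FPKM in the IL6ra T-KO-labelled library and 64.0 FPKM in WT. Xbp1 held 43.6 FPKM of the sum in the IL6ra T-KO-labelled library and 49.3 FPKM of that in WT, a ratio of -0.17. The other 3 were higher there, with Igj at 42.2 FPKM and 8.16 FPKM in WT, a ratio of 2.24 (implied SE 0.35). The 3 measured macrophage and dendritic markers summed to 23.9 FPKM in MyD88 T-KO and 16.1 FPKM in WT, and to 21.3 FPKM in the IL6ra T-KO-labelled library and 16.5 FPKM in WT. They were not uniform: Lyz2 and Itgam were higher in both knockout libraries. Cd68 was lower, at -0.08 in MyD88 T-KO and -0.46 in the IL6ra T-KO-labelled library. The part of these differences in the ribosomal protein ratios was not tested.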

How the data were processed

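Per the labels, 3 libraries of polyA RNA were sequenced, 1 per genotype, and samples were grouped by title. The submitters' processing notes name TopHat, Cufflinks and build mm10; their versions are not given in the labels or headers used. The authors deposited 2 tables, each of 1 knockout library and WT, split over 4 sheets, with values in FPKM per the file headers. The deposited fold change is a log2 value of WT over knockout. The implied standard error is the absolute value of this fold change divided by the test statistic. The deposited p-value and q-value and the test statistic, a score, are the authors' and compare single libraries. Left out was 1 line without values per table. WT stands in both tables with a scaling factor of 1.02 (median over 10201 genes), so each knockout was set against WT of its own table.

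Ratios are log2((knockout FPKM + 1)/(WT FPKM + 1)). The pseudocount understates differences at low FPKM. Features with 1 FPKM in a library count as measured. With 1 library per group no test was run. Table starts had 1 added. Named are the members at 10 FPKM or more with the 5 highest and 5 lowest ratios per comparison, the 5 highest in WT, all members at 1 to 10 FPKM, a list of 20 well-known members, and up to 2 genes per related list and direction; other named genes were chosen after their values were seen. Members, lists and rules were chosen with earlier results of these data known. Python 3.11.15, pandas 2.3.3, scipy 1.17.1 and matplotlib 3.10.9 were used, and the summaries were tested on simulated data.

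Some choices were made after values had been seen. These are the group of features at 100 FPKM or more, the level, length and copy classes, and the search window, run length and 3 words, set after about 8 member promoters had been looked at. The transcript for the window search was first chosen with RefSeq-linked transcripts preferred, and then as the shortest of the best-ranked transcripts, because 5 members had transcripts over 2000 bases under the first rule and 2 under the second. The rank correlation of WT level with the share of unique windows was 0.34 under the first rule and 0.44 under the second. That with the count of all other loci was -0.51 and -0.46, and with pseudogene loci, the count used, -0.60 and -0.58. Depth came from steps of 1 fragment in low single-transcript genes. Taking 0 to 250 bases off the transcript length gave 21.8 to 23.9 M fragments for MyD88 T-KO, 25.8 to 28.0 M for the IL6ra T-KO-labelled library, and 22.4 to 24.4 M and 21.9 to 23.9 M for WT, so depths were not compared. Some items are not reported here by name.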

Additional observations from a re-analysis of the deposited data

How the results depend on the processing

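No paired analysis was possible because each group is 1 library. The median ratio kept its sign under all 14 alternatives, from 0.04 to 0.09 in MyD88 T-KO and from -0.28 to -0.13 in the IL6ra T-KO-labelled library. It moved to 0.0445 in MyD88 T-KO with the WT values of the other table, and to 0.0419 when centred on other features at 100 FPKM or more. In the IL6ra T-KO-labelled library it moved to -0.20 when summed FPKM over non-members was made equal, and to -0.13 when centred on other features at 100 FPKM or more, where 63 of 80 members were lower. Counts of lower members differed by over 1.5 times where fewer members were counted: 13 of 63 in MyD88 T-KO without transcripts under 500 bases, and, among the 35 members with at least 50% unique windows, 8 in MyD88 T-KO and 33 in the IL6ra T-KO-labelled library. Centring on high features, the unique-window subset and leaving out Rps15 were added after seeing the data. Single libraries cannot separate genotype from pool, 7 member rows span over 30 kb, and members with many copies have uncertain levels.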

Other observations

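Rows outside the rule also hold ribosomal sequence. Fau stood at 697 FPKM in MyD88 T-KO and 677 FPKM in WT, and at 552 FPKM in the IL6ra T-KO-labelled library and 694 FPKM in WT, with ratios of 0.04 and -0.33. The row that joins Rpl34 with its pseudogene had ratios of -0.05 and -0.38, and Rpl36al had -0.01 and -0.27. Among pseudogene rows, Rplp2-ps1 had 0.10 and -0.21, and Rps19-ps3 had -0.07 and -0.50. Rps15a-ps4 had 0.10 and 0.22 and Rps15a-ps6 -0.07 and 0.13; both lay above WT in the IL6ra T-KO-labelled library, as Rps15a did at 0.06 (implied SE 0.31). Fragments of these rows may be divided with Rps15a. Rps15 had the ratio -0.57 in the IL6ra T-KO-labelled library, from 763 FPKM there and 1135 FPKM in WT, with an implied SE of 1.91, and its row spans a joined locus.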
